A study of Homo sapiens with 16 samples.

Results

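The genes described here are 10 members and neighbours of the R-spondin and LGR branch of Wnt signalling, out of 20033 protein-coding genes of the annotation: the receptors LGR4, LGR5 and LGR6, the ligands RSPO1 and RSPO3, the ubiquitin ligases RNF43 and ZNRF3, the feedback and stem-cell genes AXIN2 and TNFRSF19, and the zinc finger gene PLAG1. Each gene was given every H3K4me3 and H3K27me3 region lying within 3 kb of any of its GENCODE start sites, alternative start sites included. This gave 7 of 18734 H3K4me3 regions and 12 of 32643 H3K27me3 regions, and every gene had a region of at least 1 mark. The material was MCF-10A, a nontransformed human breast epithelial cell line grown in culture, treated for 24 h with 5 mM octanoic acid (OA), a medium-chain fatty acid, or with PBS vehicle (0 mM), in biological triplicate. CUT&RUN, in which an antibody directs a nuclease to cut out the chromatin it binds, was run against H3K4me3 and H3K27me3 with 3 vehicle and 3 OA libraries per mark, and untreated cells gave 2 H3K4me3 and 2 IgG libraries as positive and negative controls.

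R-spondins are secreted proteins that bind LGR4, LGR5 or LGR6 and draw the membrane ligases RNF43 and ZNRF3 away from Frizzled receptors. These ligases otherwise send Frizzled for degradation, so R-spondin and LGR together raise the sensitivity of a cell to Wnt. LGR5 and LGR6 mark stem or progenitor cells in several epithelia, the mammary gland among them, and LGR4 is the more widely expressed receptor. H3K4me3 marks the starts of active or poised genes, H3K27me3 is laid down by Polycomb complexes at silent genes, and starts that carry both are called bivalent.

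The files held called peaks, so the measure was the called length, the number of bases of a merged region that lay under a library's own peaks. A region was a merger of peaks of 1 mark that shared at least 1 bp and were called in at least 2 of that mark's 6 libraries. The H3K4me3 vehicle libraries held 19953, 16381 and 16086 peaks over 17.8, 17.1 and 10.3 Mb, and the OA libraries held 17988, 17975 and 21033 peaks over 14.3, 18 and 21.2 Mb. The H3K27me3 vehicle libraries held 18801, 47648 and 28850 peaks over 9.42, 25.1 and 13.3 Mb, and the OA libraries held 32363, 25540 and 9091 peaks over 15.1, 11.8 and 3.5 Mb. Vehicle replicate 3 for H3K4me3 and OA replicate 3 for H3K27me3 thus stood apart with the least covered sequence of their marks, and differences that moved by more than 1.5 times without them are given both ways. Because the number of reads in a library was not in the files used here, the share of a longer call that came from deeper sequencing was not tested. Cells were measured in bulk, so fewer cells carrying a mark and less of the mark in each cell cannot be told apart.

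The genes fell into 3 classes by the marks at their starts, and receptors and ligases were each split between classes. LGR4 and ZNRF3 had H3K4me3 alone, which was the class of 12447 of all protein-coding genes (62.1%). LGR5, LGR6, RSPO1 and RSPO3 had H3K27me3 alone, as did 9.07% of all genes. RNF43, TNFRSF19, AXIN2 and PLAG1 had a region of each mark, as did 4.72% of all genes. This class depended on the rules for starts and peaks. Within 1 kb of a start 2 genes kept both marks (TNFRSF19 and AXIN2), and with the canonical start alone 3 did (RNF43, AXIN2 and PLAG1). With equal peak numbers in all libraries AXIN2 lost its H3K27me3 region, which left 3 genes with both marks, with regions called in any library LGR6 joined them to make 5, and at a q-value of at most 1e-05 there were 0. Across the annotation, 66.8% of protein-coding genes had an H3K4me3 region, 13.8% an H3K27me3 region and 24.1% neither. No peak of either IgG library touched any region of the 10 genes. The untreated H3K4me3 libraries had peaks at LGR4 (1250 and 1266 bp), ZNRF3 (1046 and 335 bp) and PLAG1 (317 and 354 bp), and at none of the H3K4me3 regions of RNF43, TNFRSF19 or AXIN2.

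**Figure D1:**
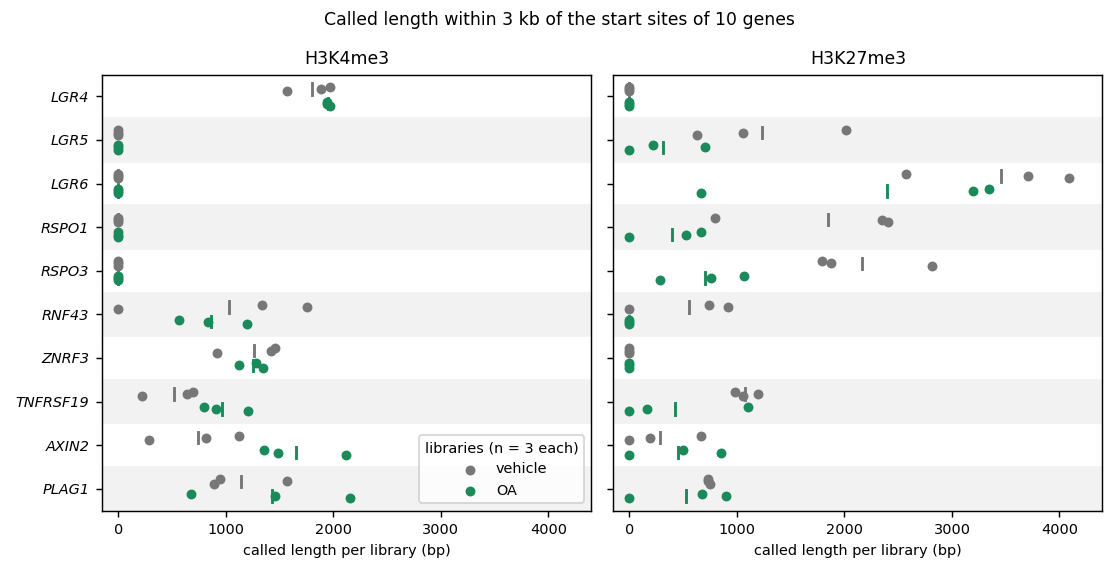
Called length in bp (x axis) of H3K4me3 (left) and H3K27me3 (right) within 3 kb of the start sites of each gene (y axis), with 1 point per library, vehicle in grey and OA in green, and a bar at each mean of 3. OA points lie to the right of all vehicle points for H3K4me3 at AXIN2 and TNFRSF19, and to the left of all vehicle points for H3K27me3 at RSPO1 and RSPO3.

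Summed over the 10 genes, H3K4me3 covered 7516, 8069 and 3891 bp in the vehicle libraries and 6600, 7751 and 9985 bp in the OA libraries. The means were 6492 ± 2269 and 8112 ± 1721 bp (SD, n = 3 each) and the groups overlapped, since the highest value was an OA library and the next was a vehicle library. The difference was 1620 bp, and it was 320 bp without vehicle replicate 3 and 684 bp without OA replicate 3. H3K27me3 covered 10292, 12022 and 11744 bp in vehicle and 7569, 7110 and 949 bp in OA. Every OA library was below every vehicle library, with means of 11353 ± 929 and 5209 ± 3697 bp (SD, n = 3 each) and a difference of -6143 bp, or -4013 bp without OA replicate 3. This sum includes 3 regions, of LGR6, RSPO1 and RNF43, that were called in vehicle libraries alone. OA replicate 3 had H3K27me3 called at 2 of the 8 genes with a region, LGR6 and RSPO3, while OA replicates 1 and 2 had it called at 7 each. Both marks leaned the way the whole tables did. The median difference over genes with a region was 218 bp for H3K4me3 at these genes and 140 bp over all genes (77.1% of which were longer in OA), and -790 bp for H3K27me3 against -208 bp over all genes (72.9% of which were shorter in OA).

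Counted gene by gene, H3K4me3 was longer in every OA library than in every vehicle library at 2 of the 6 genes with a region, AXIN2 and TNFRSF19, where 9.33% of all genes with an H3K4me3 region met this rule, and longer in every vehicle library at 0 of 6 (background 0.306%). H3K27me3 was longer in every vehicle library at 2 of 8 genes, RSPO1 and RSPO3, against a background of 11.2%, and longer in every OA library at 0 of 8 (background 0.543%). By region, the counts were 2 of 7 for H3K4me3 longer in OA (background 9.02%) and 0 of 7 longer in vehicle (0.448%), and 4 of 12 for H3K27me3 longer in vehicle (5.59%), of which the LGR6 intron region was a region through its vehicle calls alone, and 0 of 12 longer in OA (0.481%). These backgrounds depended on which library was left out. Without OA replicate 1, 5987 of 18213 H3K4me3 regions were longer in every OA library and 184 in every vehicle library. Without vehicle replicate 1, 7536 of 28924 H3K27me3 regions were longer in every vehicle library and 224 in every OA library. Without vehicle replicate 3, 1708 of 18556 H3K4me3 regions were longer in every OA library and 2324 in every vehicle library, and without OA replicate 3, 1897 of 31187 H3K27me3 regions were longer in every OA library and 1993 in every vehicle library. The gene counts moved as well. Without vehicle replicate 3 of H3K4me3, RNF43 and ZNRF3 were longer in every vehicle library (2 of 6), and the H3K27me3 count of genes longer in vehicle rose to 4 of 8 without vehicle replicate 3 (adding LGR5, and RNF43, whose region was called in vehicle libraries alone and so had to separate) or OA replicate 2 (adding LGR5 and PLAG1), while it stayed at 2 of 8, RSPO1 and RSPO3, without OA replicate 3. Over all H3K27me3 regions, 4425 of 26011 were longer in every vehicle library without vehicle replicate 3. Without OA replicate 2, 2831 of 27224 were, so the background rose in both settings. No gene was longer in every vehicle library or every OA library for H3K27me3 once peaks within 5 kb were joined. With 3 libraries against 3 the exact permutation test, two-sided, cannot give a p below 0.1, so groups that do not overlap are the strongest result this test allows for a gene. This floor belongs to the test and not to the design, and the replicated differential test of the study was not repeated. The study's read-count test on these same libraries gave H3K27me3 peaks enriched in control that it linked to genes including LGR6, PLAG1 and TNFRSF19. Those peaks were not matched to the regions here. The direction at these 3 genes is thus not independent evidence.

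The rank of the peaks within their library gave other counts. Ranks come from lists of different length (9091 to 47648 peaks for H3K27me3), and a region without a peak is set to 0. A gap in rank was thus not read as a change in the mark. The percentile of the strongest peak was higher in every OA library at 0 of the 7 H3K4me3 regions (background 10%) and in every vehicle library at 0 of 7 (4.52%). For H3K27me3 it was higher in every vehicle library at 4 of 12 regions, those of RSPO1 and TNFRSF19 at their starts, the LGR6 intron and PLAG1 (background 5.12%), and in every OA library at 0 of 12 (0.686%). The H3K4me3 regions were called in all 6 libraries at 5 of 7 (background 59.1%), in the vehicle libraries alone at 0 (0.0801%) and in the OA libraries alone at 0 (1.84%), where alone means all 3 libraries of a treatment and none of the other. The H3K27me3 regions were called in all 6 libraries at 2 of 12 (background 4.06%), the canonical start of LGR6 and RSPO3, and in the OA libraries alone at 0 (0.245%). Another 7 stretches near the starts of LGR6, ZNRF3, RSPO1, RSPO3 and AXIN2 were called in 1 library and formed no region.

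The receptors had opposite marks. LGR4 carried H3K4me3 and no H3K27me3 call in any library. Its region on chromosome 11 (hg38, 27470877 to 27472897) spanned the canonical start, the first coding exon and the beginning of the first intron, and also holds start sites of the antisense transcript LGR4-AS1, which the peaks cannot separate from it. The called length was 1965, 1881 and 1569 bp in vehicle and 1941, 1943 and 1971 bp in OA. The OA libraries were almost equal and lay within the range reached by the vehicle libraries or just above it, so the groups overlapped (1805 ± 209 and 1952 ± 16.8 bp, SD, n = 3 each; difference 147 bp, exact permutation p = 0.3). The difference rested on vehicle replicate 3, without which it was 28.7 bp, and without vehicle replicate 1 it was 227 bp and the groups no longer overlapped. The fold of the peak over background was 6.01, 9 and 10.6 in the vehicle libraries and 5.5, 6.71 and 7.45 in the OA libraries, also overlapping. By its -log10 p, the LGR4 peak ranked between the 71.2 and 90 percentile of the peaks of its own library in all 6 libraries, and at 79 and 93.6 in the untreated ones. The bases just upstream of the start are shown with those of LGR6 because the receptors share a protein family and carried different marks there. They are from RefSeq GRCh38.p14, 5′ to 3′, with CG dinucleotides in capitals, for chr11:27472791-27473040 on the minus strand and chr1:202193549-202193798 on the plus strand.
LGR4: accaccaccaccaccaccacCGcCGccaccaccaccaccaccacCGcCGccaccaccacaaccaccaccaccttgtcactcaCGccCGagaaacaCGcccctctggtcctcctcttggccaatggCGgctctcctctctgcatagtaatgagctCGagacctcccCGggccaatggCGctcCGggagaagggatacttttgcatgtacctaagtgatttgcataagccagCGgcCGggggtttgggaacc
LGR6: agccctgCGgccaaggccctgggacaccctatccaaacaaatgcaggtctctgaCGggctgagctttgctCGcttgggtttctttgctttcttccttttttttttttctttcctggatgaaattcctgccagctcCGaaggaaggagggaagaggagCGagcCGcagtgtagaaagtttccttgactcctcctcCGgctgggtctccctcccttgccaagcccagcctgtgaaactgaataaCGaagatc
In the full promoter window of 300 bases (250 before the start and 50 after it), LGR4 had 18 CG dinucleotides and LGR6 had 11, where the median of 27305 such windows was 14. Peaks of H3K4me3 covered 149, 153 and 157 of the 300 bases of LGR4 in vehicle and 77, 79 and 128 in OA, and none of the LGR6 window in any library. H3K27me3 covered 27, 300 and 300 bases of the LGR6 window in vehicle and 0, 300 and 0 in OA. The upstream edge of the LGR4 call thus lay closer to the start in OA than in vehicle, although its full length did not differ beyond the spread. The untreated libraries covered 76 and 46 bases of the LGR4 window, so a short reach upstream was not particular to OA.

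LGR5, the stem-cell receptor of the intestine and hair follicle, carried H3K27me3 at its start on chromosome 12 (71439872 to 71441967), beginning 74 bp after the canonical start in the first coding exon and reaching into the first intron. The called length was 2017, 1056 and 629 bp in vehicle and 221, 706 and 0 bp in OA. Vehicle replicates 1 and 2 were above every OA library and vehicle replicate 3 was below OA replicate 2, so the groups overlapped (1234 ± 711 and 309 ± 361 bp, SD, n = 3 each; difference -925 bp, exact permutation p = 0.2). The difference was -534 bp without vehicle replicate 1 and -278 bp when all libraries were cut to equal numbers of peaks, while the groups came apart without vehicle replicate 3 (-1228 bp) and without OA replicate 2 (-1124 bp). The peak ranked at the 49.8, 87.6 and 38.3 percentile in vehicle and at 83.9 and 33.3 in OA replicates 1 and 2. A start site of TSPAN8, a tetraspanin gene, lies within 3 kb of this region, which therefore counts for both genes. No H3K4me3 region was called at LGR5.

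**Figure D2:**
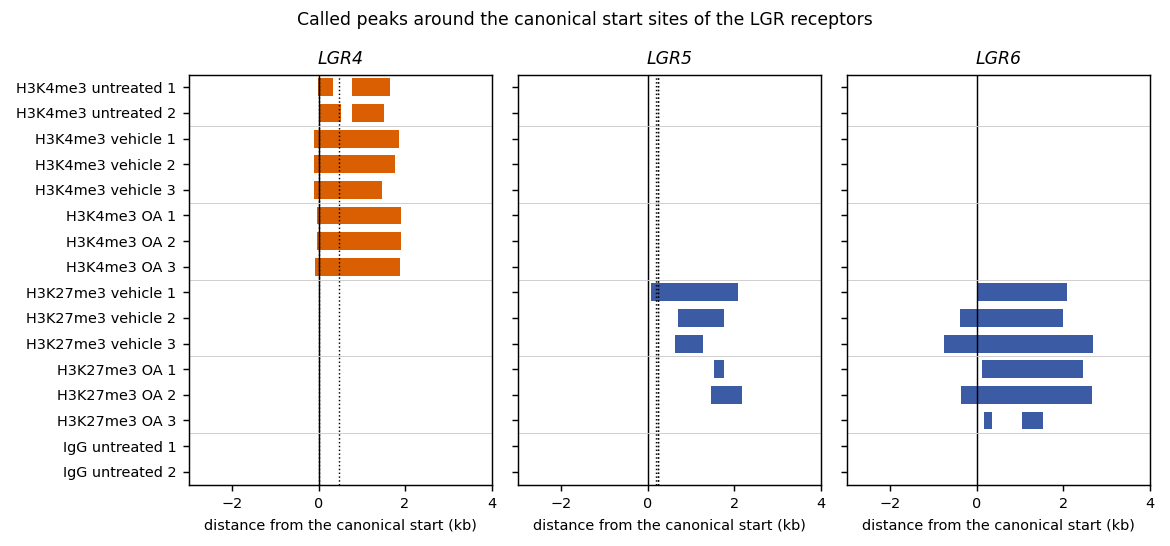
Called peaks (bars) in each of the 16 libraries (rows) around the canonical starts of LGR4, LGR5 and LGR6, by distance from the start in kb (x axis, positive into the gene), with H3K4me3 in orange and H3K27me3 in blue. A solid line marks the canonical start and dotted lines the alternative ones. H3K4me3 bars occur at LGR4 alone, H3K27me3 bars at LGR5 and LGR6 alone, and the IgG rows are empty.

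LGR6, the receptor that marks stem cells of skin and progenitors in the mammary gland, had the longest H3K27me3 calls of the 10 genes, and its vehicle mean lay at the 99.5 percentile of all genes with an H3K27me3 region. It had 3 such regions on chromosome 1, at the canonical start (202193043 to 202196488) and on either side of the alternative start of transcript LGR6-205 in an intron, 20356 bp further downstream (202212532 to 202213549 and 202215220 to 202215859). At the canonical start the calls were 2057, 2365 and 3446 bp in vehicle and 2325, 3024 and 665 bp in OA. OA replicates 1 and 2 lay among the vehicle libraries and OA replicate 3 lay below them (2623 ± 729 and 2005 ± 1212 bp, SD, n = 3 each; difference -618 bp, exact permutation p = 0.5). Without OA replicate 3 the difference turned to 51.8 bp, and it was -206 bp without vehicle replicate 3 and -1128 bp without OA replicate 2. The region upstream of the alternative start was called in vehicle replicate 2 (775 bp) and in OA replicates 1 (1018 bp) and 2 (169 bp), again with overlap.

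The intronic region 1065 bp downstream of the alternative start differed from these in its calls. It was called over 519, 568 and 640 bp in the vehicle libraries and over 0 bp in each OA library. Every vehicle library had it and no OA library did (576 ± 60.9 and 0 ± 0 bp, SD, n = 3 each; difference -576 bp), a pattern of 832 of the 32643 H3K27me3 regions (2.55%). It entered the merged regions through its vehicle calls alone, so it is given as a description, with no test. Its vehicle peaks had folds of 2.22, 2.2 and 2.34 and ranked at the 15.4, 77 and 72.8 percentile of their libraries, so the call in vehicle replicate 1 was among the weaker ones of that library. The middle 300 bases of this region (hg38, chr1:202215390-202215689, plus strand) hold 3 CG dinucleotides, in capitals, and are shown because this was the only region of the 10 genes with all vehicle libraries called and no OA library called.
LGR6 intron: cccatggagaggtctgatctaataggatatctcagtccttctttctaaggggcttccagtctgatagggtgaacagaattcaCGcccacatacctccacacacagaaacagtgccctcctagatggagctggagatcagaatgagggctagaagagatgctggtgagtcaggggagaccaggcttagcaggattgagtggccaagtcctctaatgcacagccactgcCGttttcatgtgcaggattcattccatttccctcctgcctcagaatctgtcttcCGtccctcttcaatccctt
Summed over the 3 regions, LGR6 had 2576, 3708 and 4086 bp in vehicle and 3343, 3193 and 665 bp in OA, which overlapped. The difference in this sum, -1056 bp, includes the region called in vehicle alone and is given with no test. It was -189 bp without OA replicate 3, -1497 bp without vehicle replicate 1, when the groups came apart, and -4478 bp with peaks within 5 kb joined. An H3K4me3 peak of 796 bp across the LGR6-205 start was called in OA replicate 3 alone, with a fold of 8.32 at the 35.7 percentile of that library, and so formed no region under the rule of at least 2 libraries. That library covered the most sequence of the H3K4me3 libraries. Another H3K4me3 peak in LGR6, of 549 bp (202204575 to 202205123) with a fold of 5.04, was called in vehicle replicate 3 alone. Further than 3 kb from any start, an H3K4me3 region in the body of LGR6 (202235897 to 202236637) was called in both treatments. It covered 741, 458 and 0 bp in vehicle and 500, 358 and 698 bp in OA, with overlap.

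**Figure D3:**
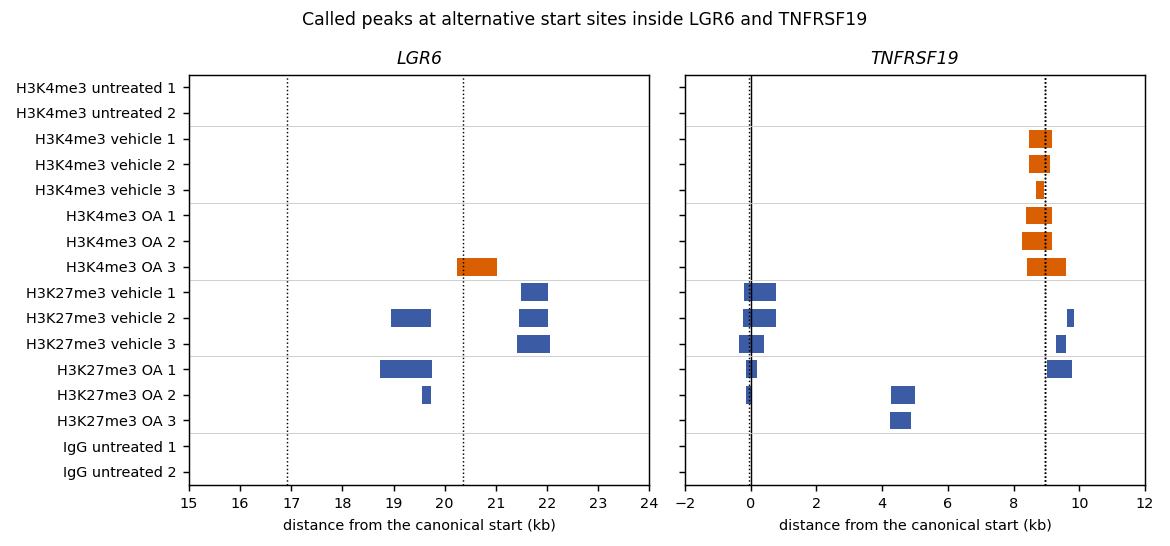
Called peaks (bars) in each of the 16 libraries (rows) at the alternative starts in LGR6 (left) and at the canonical and alternative starts of TNFRSF19 (right), by distance from the canonical start in kb (x axis), with H3K4me3 in orange and H3K27me3 in blue. Solid lines mark canonical and dotted lines alternative starts. The LGR6 region just past 21 kb is called in the 3 vehicle rows of H3K27me3 and in none of the OA rows, and the TNFRSF19 calls at 0 kb are shorter or absent in OA.

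Both ligand genes had H3K27me3 alone, and both had shorter calls in every OA library. RSPO3, which is made mainly by stromal and endothelial cells, had a region on chromosome 6 (127118286 to 127121099) across its start, first coding exon and first intron. The calls were 1794, 1876 and 2814 bp in vehicle and 1062, 763 and 284 bp in OA. No OA library reached the shortest vehicle call (2161 ± 567 and 703 ± 392 bp, SD, n = 3 each; difference -1458 bp, exact permutation p = 0.1), and the difference was -1249 bp without OA replicate 3. The strength of the peaks did not separate in the same way, since percentiles were 74.6, 78.3 and 33.5 in vehicle and 67.4, 59.3 and 14.4 in OA, and folds were 2.59, 2.67 and 2.52 against 2.72, 2.65 and 2.95. The lengths also came to overlap when each library was held to the same number of peaks (difference -503 bp) and when peaks within 5 kb were joined (-579 bp).

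RSPO1, a ligand that sustains mammary stem cells in culture, had a main region on chromosome 1 (37631984 to 37634687) in its first exon, without coding sequence, and first intron, and a smaller one upstream of the start (37635601 to 37636135). In the main region the calls were 793, 1849 and 1985 bp in vehicle and 666, 525 and 0 bp in OA. The groups did not overlap, although vehicle replicate 1 was close to OA replicates 1 and 2 and far below the other vehicle libraries (1542 ± 652 and 397 ± 351 bp, SD, n = 3 each; difference -1145 bp, exact permutation p = 0.1), and the difference was -947 bp without OA replicate 3 and -924 bp without vehicle replicate 3. Its peaks ranked at the 79.9, 93.2 and 76 percentile in vehicle and at 29 and 10 in OA replicates 1 and 2. As the lists differ in length, these ranks were not read as a change. The upstream region was called in vehicle replicates 2 (501 bp) and 3 (417 bp) and in no OA library, and as it entered through vehicle calls alone it is given with no test. Over both regions the difference was -1451 bp, and these summed RSPO1 lengths came to overlap when a peak had to cover 50% of a region (difference -1584 bp), when stretches called in 1 library were added (-1391 bp) and when peaks within 5 kb were joined (-1979 bp).

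The membrane ligases that the R-spondins act on had H3K4me3 in both treatments. ZNRF3 had 1 region on chromosome 22 (28883390 to 28884867) across the start and first coding exon, with 1454, 1418 and 921 bp in vehicle and 1278, 1125 and 1344 bp in OA. The groups overlapped and their means were close (1264 ± 298 and 1249 ± 112 bp, SD, n = 3 each; difference -15.3 bp, exact permutation p = 1), and no H3K27me3 was called. Without vehicle replicate 3 the difference was -187 bp and the groups no longer overlapped. RNF43 had H3K4me3 regions on chromosome 17 at its canonical start (58416532 to 58417684) and at an alternative start further into the gene (58415406 to 58416175), with 1338, 1751 and 0 bp together in vehicle and 563, 833 and 1197 bp in OA. Vehicle replicate 3, the H3K4me3 library with the least covered sequence, had no call there, and the other libraries were all called (1030 ± 915 and 864 ± 318 bp, SD, n = 3 each; difference -165 bp, exact permutation p = 0.9). Without that library the difference was -680 bp and the groups no longer overlapped. Its H3K27me3 region lay upstream of the canonical start, 2516 bp from the nearest H3K4me3 region (58420201 to 58421117), and was called over 739, 917 and 0 bp in vehicle and in no OA library, with folds of 3.61 and 3.98 (difference -552 bp). It too entered through vehicle calls alone and is given with no test. OA replicate 1 had a separate H3K27me3 peak just beyond it, more than 3 kb from any RNF43 start. The annotated readthrough gene ENSG00000285897 shares start sites with RNF43, and the peaks cannot be assigned to either.

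AXIN2, the scaffold of the destruction complex and a direct target of Wnt signalling that feeds back on it, had the largest H3K4me3 difference of the 10 genes. Its region on chromosome 17 (65559775 to 65561971) ran from the canonical start over several alternative starts in the first intron. The called length was 1119, 814 and 283 bp in vehicle and 1352, 1489 and 2117 bp in OA. Every OA library exceeded every vehicle library (739 ± 423 and 1653 ± 408 bp, SD, n = 3 each; difference 914 bp, exact permutation p = 0.1), and without vehicle replicate 3 the groups still did not overlap, with a difference of 686 bp. The groups were apart in width and not in fold, which was 6.19, 7.58 and 8.76 in the vehicle libraries and 7.32, 7.37 and 7.33 in the OA libraries, and the percentiles overlapped too, at 28.2, 25.9 and 46.6 against 53.6, 37.5 and 44.1. The depth behind these peaks was modest, with 17, 21 and 17 reads at the highest point in vehicle and 29, 45 and 52 in OA, not scaled for library size. Further into the gene, an H3K27me3 region (65559518 to 65560371) was called over 664, 189 and 0 bp in vehicle and 503, 854 and 0 bp in OA, with overlap (difference 168 bp, exact permutation p = 0.7, and 394 bp without OA replicate 3). The merged regions of H3K27me3 and H3K4me3 shared 597 bp, but within vehicle the calls did not meet. Vehicle H3K4me3 calls ended at most 795 bp after the canonical start, and vehicle H3K27me3 calls began at 1440 and 1486 bp. In OA, H3K4me3 calls ended at 1460, 1460 and 1873 bp, and H3K27me3 calls began at 1436 and 1277 bp. Of the 945 genes with both marks, 295 had regions that shared sequence (31.2%).

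**Figure D4:**
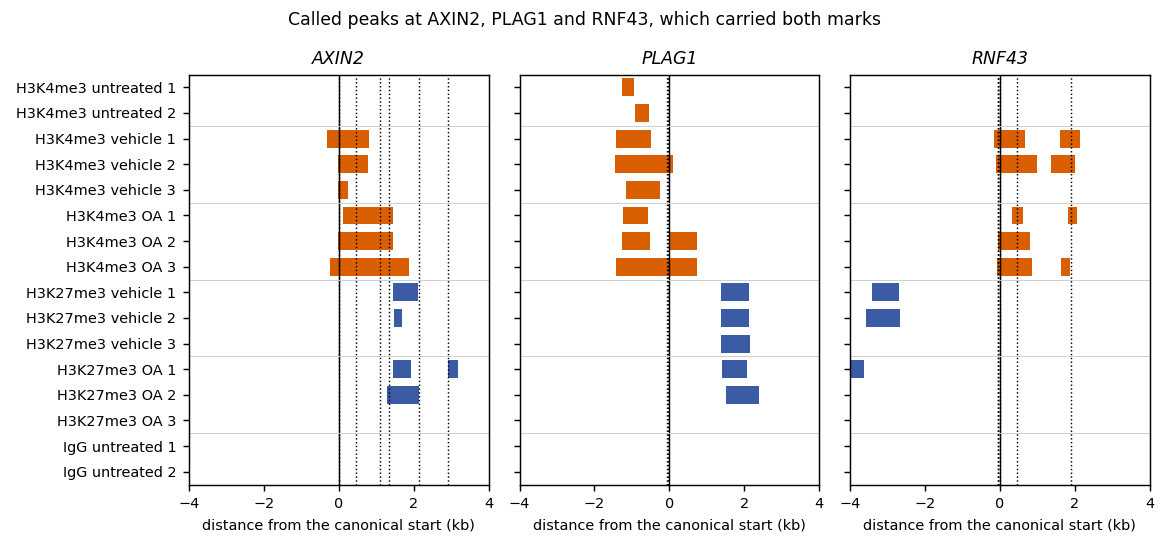
Called peaks (bars) in each of the 16 libraries (rows) at AXIN2, PLAG1 and RNF43, by distance from the canonical start in kb (x axis, positive into the gene), with H3K4me3 in orange, H3K27me3 in blue, a solid line at the canonical start and dotted lines at alternative starts. The AXIN2 H3K4me3 bars extend further in the 3 OA rows, the H3K27me3 bars lie inside AXIN2 and PLAG1 and upstream of RNF43, and the H3K27me3 row of OA replicate 3 is empty at all 3 genes.

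TNFRSF19, also called TROY, a receptor of the tumour necrosis factor family found with LGR5 on stem cells, had its marks at different starts. At the canonical start on chromosome 13 (23570067 to 23571186) H3K27me3 was called over 979, 999 and 766 bp in vehicle and 336, 166 and 0 bp in OA. The OA calls were all shorter (915 ± 129 and 167 ± 168 bp, SD, n = 3 each; difference -747 bp, exact permutation p = 0.1) and also ranked lower, at the 61.4 and 13.3 percentile in OA replicates 1 and 2 against 87.1, 92.6 and 91.1 in vehicle. These ranks come from lists of different length and were not read as a change. The 208 bases before the first start site (RefSeq GRCh38.p14, chr13:23570162-23570369, plus strand, CG in capitals) are shown because H3K27me3 calls across this start separated the groups by length, and they hold 2 CG dinucleotides.
TNFRSF19: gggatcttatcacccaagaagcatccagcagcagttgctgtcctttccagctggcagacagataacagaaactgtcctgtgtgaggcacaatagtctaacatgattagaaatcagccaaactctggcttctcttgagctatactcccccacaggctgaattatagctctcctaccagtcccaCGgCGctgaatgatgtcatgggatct
H3K27me3 covered 254, 274 and 300 of the 300 bases of the TNFRSF19 promoter window in the vehicle libraries and 184, 166 and 0 in the OA libraries.

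At the alternative TNFRSF19 starts, 8947 to 8968 bp downstream of the canonical one, H3K4me3 was called instead (23578660 to 23580009), over 693, 635 and 225 bp in vehicle and 794, 908 and 1203 bp in OA. Every OA library was longer (518 ± 255 and 968 ± 211 bp, SD, n = 3 each; difference 451 bp, exact permutation p = 0.1), and so it was without vehicle replicate 3, with a difference of 304 bp. Folds (10.2, 8.05 and 5.25 in vehicle, 7.51, 8.46 and 9.72 in OA) and percentiles (44.7, 24.4 and 17 against 39.1, 27.7 and 43.1) overlapped, and the summit of the peak held 24, 17 and 7 reads in the vehicle libraries against 19, 22 and 38 in the OA libraries. An H3K27me3 region next to these starts (23579433 to 23580241) shared 577 bp with the merged H3K4me3 region. Within vehicle the calls did not meet, as H3K4me3 ended at most 9155 bp after the canonical start and H3K27me3 began at 9289 bp or further. In OA, H3K4me3 calls ended at 9175, 9155 and 9597 bp and the H3K27me3 call began at 9021 bp. This H3K27me3 region was called over 193 and 294 bp in vehicle replicates 2 and 3 and 763 bp in OA replicate 1. Because this call in OA replicate 1 is added to that at the canonical start, the H3K27me3 sum of the gene overlapped between groups, at 979, 1192 and 1060 bp against 1099, 166 and 0 bp (exact permutation p = 0.3), and came apart without OA replicate 1 (difference -832 bp).

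PLAG1, a zinc finger transcription factor, had an H3K4me3 region on chromosome 8 (56210538 to 56212732) that also holds starts of the divergent gene CHCHD7. In vehicle replicates 1 and 3, OA replicate 1 and both untreated libraries the peaks lay wholly upstream of every PLAG1 start, on the CHCHD7 side. The peaks of vehicle replicate 2 and OA replicate 3 spanned the PLAG1 start, and OA replicate 2 had a peak on each side of it, so the calls cannot be assigned to PLAG1. It covered 947, 1570 and 893 bp in vehicle and 672, 1453 and 2153 bp in OA, with overlap (difference 289 bp, exact permutation p = 0.7). It was 168 bp without vehicle replicate 3 and -74.2 bp without OA replicate 3. Its H3K27me3 region lay in the first intron, 1387 bp downstream of the canonical start (56208868 to 56209886), 651 bp from the H3K4me3 region, and covered 730, 734 and 753 bp in vehicle and 675, 903 and 0 bp in OA. The lengths overlapped (739 ± 12.3 and 526 ± 470 bp, SD, n = 3 each; difference -213 bp, exact permutation p = 0.7), without OA replicate 3 the difference was 50 bp in the other direction, and without OA replicate 2 it was -402 bp and the groups came apart. The ranks did not overlap, though vehicle replicate 1 (95.5) and OA replicate 1 (93.6) were close. The vehicle peaks were at the 95.5, 99.7 and 98.2 percentile of their libraries, above every other region here in each vehicle library, and the OA peaks were at 93.6 and 85.1 with none in replicate 3. These ranks come from lists of different length, so no test is given.

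**Figure D5:**
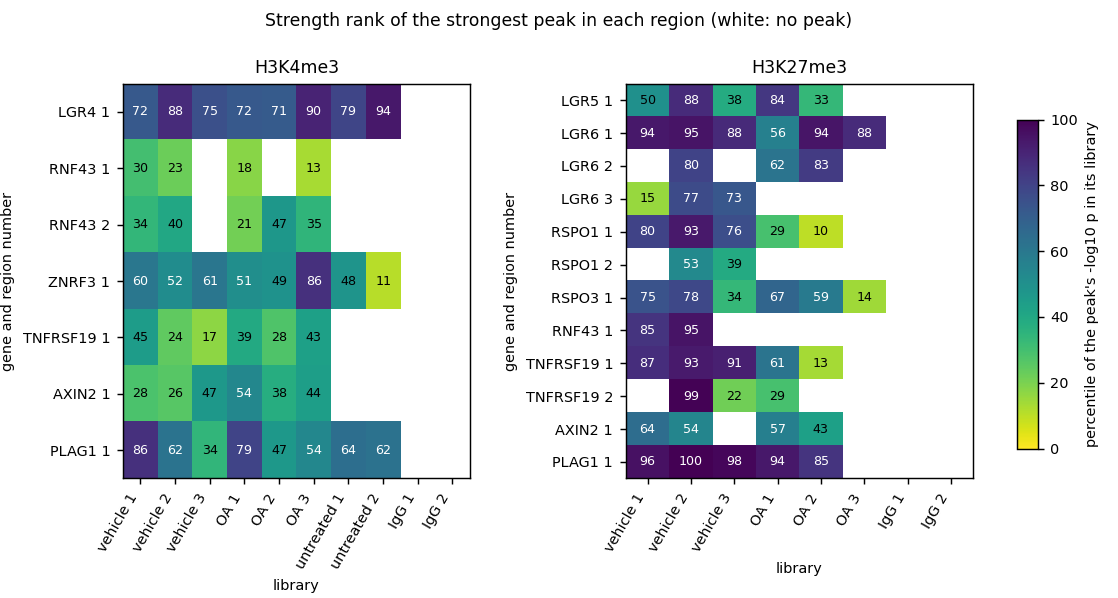
Percentile of the strongest peak's -log10 p among all peaks of its own library (colour and number) for each region (rows, gene and region number) in each library (columns), for H3K4me3 (left) and H3K27me3 (right), with white for no peak. PLAG1 and LGR6 hold the darkest H3K27me3 rows, the OA replicate 3 column of H3K27me3 is called at LGR6 and RSPO3 alone, and the IgG columns are white throughout.

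Ranked by mean called length in vehicle, the H3K27me3 genes ran from LGR6 (3457 bp) through RSPO3 (2161 bp), RSPO1 (1848 bp), LGR5 (1234 bp), TNFRSF19 (1077 bp), PLAG1 (739 bp) and RNF43 (552 bp) to AXIN2 (284 bp). The individual libraries of each gene in this order overlapped those of the next, apart from TNFRSF19, whose shortest vehicle call of 979 bp lay above the longest of PLAG1 at 753 bp. For H3K4me3 the order was LGR4 (1805 bp), ZNRF3 (1264 bp), PLAG1 (1137 bp), RNF43 (1030 bp), AXIN2 (739 bp) and TNFRSF19 (518 bp), and only LGR4 lay wholly above its neighbour. All H3K27me3 calls at these genes were modest, with folds between 2.2 and 4.28, and with peaks held to a q-value of at most 1e-05 no gene kept an H3K27me3 region.

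Beyond 3 kb from any start, the bodies of the 10 genes held 25 further H3K27me3 regions and 2 of H3K4me3, and 8 of the H3K27me3 regions were in LGR6. The H3K4me3 regions lay in LGR6 and ZNRF3, and the groups overlapped at both. Of the 25, 3 were longer in every vehicle library and 0 in every OA library, where 5.59% and 0.481% of all H3K27me3 regions were. An LGR6 intron region (202264114 to 202266358) had 1891, 1859 and 1469 bp in vehicle and 521, 540 and 1083 bp in OA. An RSPO3 intron region (127152331 to 127153236) had 582, 906 and 752 bp in vehicle and 261, 0 and 0 bp in OA. A TNFRSF19 intron region (23587481 to 23589699) had 1522, 1485 and 2184 bp in vehicle and 1393, 1004 and 820 bp in OA. At all 3 the groups did not overlap, and the LGR6 region is separate from the one near the alternative start. Another TNFRSF19 intron region (23574639 to 23575405) went the other way, with calls of 720 and 658 bp in OA replicates 2 and 3 and none in OA replicate 1 or in vehicle, so that its groups overlapped.

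The wider Wnt pathway was taken from a list of 61 other genes. Of these, 38 had H3K4me3 alone (62.3%, against 62.1% of all protein-coding genes), 8 both marks (13.1%, against 4.72%), 8 H3K27me3 alone (13.1%, against 9.07%) and 7 neither (11.5%, against 24.1%). Of 12 Frizzled and LRP genes 11 had H3K4me3 alone. H3K4me3 was longer in every OA library at 5 of the 46 genes with a region and in every vehicle library at 0, close to the 9.33% and 0.306% of all genes with an H3K4me3 region, with a median difference of 308 bp against 140 bp over all genes. The 5 were SP5, a direct Wnt target (214 ± 232 to 1537 ± 561 bp), FZD10, a Frizzled receptor (108 ± 186 to 1164 ± 384 bp), KREMEN2, a co-receptor of Dickkopf (258 ± 234 to 998 ± 311 bp), BCL9, a β-catenin cofactor (990 ± 145 to 1670 ± 311 bp), and TCF7, a TCF/LEF factor (328 ± 307 to 885 ± 342 bp; SD, n = 3 each). H3K27me3 was longer in every vehicle library at 2 of 16 genes and in every OA library at 0, close to the 11.2% and 0.543% of all genes with an H3K27me3 region, with a median difference of -176 bp against -208 bp over all genes. The 2 genes were SP5 (1906 ± 541 to 345 ± 597 bp) and PROM1, which encodes the stem-cell surface protein CD133 (2093 ± 418 to 655 ± 685 bp; SD, n = 3 each). SP5 was the only gene of this list in which both marks separated the groups. The genes with both marks, by H3K27me3 length in vehicle, were SP5, BCL9, LEF1, DKK2, SOX9, RSPO2, TCF7 and PYGO1. RSPO2, the third R-spondin with a region, had H3K4me3 called in 1 vehicle and 3 OA libraries and H3K27me3 in 3 vehicle and 1 OA library, with overlap for both.

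The cell identity of the libraries was checked at marker genes. All 8 basal and epithelial genes had H3K4me3 and none had H3K27me3, although KRT14 was called in 2 vehicle libraries and in no OA library. Of 16 genes of blood, endothelium, fibroblast, muscle, liver and neural cells, 1 had H3K4me3 (CD14) and 4 had H3K27me3. CDKN2A and CDKN2B, which MCF-10A cells are known to lack, had no region of either mark.

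Likeness to other genes was measured as the Euclidean distance between the percentile ranks of 2 genes over the 12 libraries. LGR4 was nearest to LAMTOR5 (8.03 percentile points), KTN1 (8.76) and ENSG00000286905 (9.54), where the median distance to all genes was 83.2. ZNRF3 was nearest to RELL1 (7.46), MXD4 (10.8) and SLC35E1 (12). LGR6 was nearest to the neighbouring pair DUOX2 and DUOXA2 (13.7 each) and to NFASC (16.1), with a median of 247 over all genes, RSPO3 to LIX1 (16.2), KRT72 (23.9) and ATP2C2 (26.3), and RSPO1 to the keratin-associated genes KRTAP4-1 and KRTAP9-1 (14.5 each) and HOXB6 (30.5). Apart from TSPAN8, which shares its region, LGR5 was nearest to CCR6 (24.2) and ENSG00000204003 (26.9). For the genes with both marks, the nearest outside shared regions were PLCL1 to TNFRSF19 (34.3, median 192) and DCP1B to RNF43 (42.2, median 151). GDAP1 was nearest to PLAG1 (50.6, median 224) and AUTS2 to AXIN2 (56.6, median 148). A gene without a region of a mark is set to 0 in all libraries of that mark, so distances cannot be compared between the classes. The promoter windows of 6 of the 10 genes were in the RefSeq table, and CTTTGAT, the core letters bound by TCF/LEF factors, searched on both strands, was in 0 of these 6 and in 721 of all 27305 windows (2.64%). At so low a share, 6 windows cannot show a lack of this motif, and LGR5, ZNRF3, AXIN2 and PLAG1 had no window.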

How the data were processed

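CUT&RUN peak lists from 16 MCF-10A libraries were used, grouped as per the labels. The authors aligned reads to hg38 and called narrow peaks for H3K4me3 and IgG with MACS2 2.2.7.1; for H3K27me3 the methods name SICER2, while the deposited lists have the layout of MACS2 broad peaks. The lists deposited by the authors hold, per peak, a fold over background (a ratio), a -log10 p-value and a -log10 q-value, with the highest q at about 0.01 in the narrow and 0.1 in the broad lists. Read totals are not in these lists and the replicated differential test named in the methods was not repeated. Peaks on contigs other than the main chromosomes were left out (0.399 to 17.3% of a list).

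Peaks of the 6 libraries of a mark were joined into regions wherever 1 bp or more was common to them, those called in at least 2 libraries were kept, and regions within 3 kb of any start site of GENCODE release 44 were given to a gene. Differences in mean called length were tested by exact permutation (two-sided) in Python 3.11.15 with numpy 2.4.6 and scipy 1.17.1. Groups count as different where no value of one lies within the range of the other. Triplicates are taken as separate cultures, since the methods describe seeding in biological triplicate. A percentile is the rank of a peak's -log10 p in its own library, 0 without a peak, and so depends on the length of that library's list. For the narrow lists, reads at a peak's highest point were recovered from its fold and p-value, to within 0.1%, as the whole number of reads that both fit. On simulated calls, 200 of 200 planted regions longer in OA and 200 of 200 called in vehicle alone were recovered among 5000 regions of each mark. The planted differences exceeded the planted spread by construction. This checked the code alone, and not the power or the false calls at the spread of the real libraries. Whether replicate numbers pair the libraries was not settled. Correlations of same-numbered deviations were 0.0129, 0.337 and -0.171 for H3K4me3, where differently numbered pairs ran from -0.358 to 0.252. They were 0.0785, 0.058 and 0.0395 for H3K27me3, all above the differently numbered pairs, which ran from -0.0862 to 0.0237. The main test did not pair the libraries. The 10 genes and all gene lists were chosen with earlier results of these data known. The text names all 10 genes, their neighbours within 3 kb of a region, up to 5 genes of the Wnt list per mark and direction whose groups did not overlap, up to 10 of that list with both marks, and the 3 genes nearest to each member in rank, or the nearest of them. Alternatives were a stricter q-value, equal peak numbers, a 50% cover rule, regions called in any library, removal of IgG regions, the percentile as the measure, joined H3K27me3 peaks, other rules for start sites, leaving out each library, and a replicate block. Figures were drawn with matplotlib 3.10.9.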

Additional observations from a re-analysis of the deposited data

How the results depend on the processing

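The peak lists limit precision to where each library's peaks pass its own threshold, so a called length depends on depth, which was not given. In the exact permutation test no difference of a single gene could reach a p below 0.1, and in the exact sign-flip test of a replicate block none below 0.25. The block by its construction leaves each mean difference as it was and changes the p alone (AXIN2 H3K4me3 914 bp and RSPO3 H3K27me3 -1458 bp, exact sign-flip p = 0.25 each). Of 108 gene values under the other alternatives, 89 kept their direction and their overlap, 8 came to overlap, 5 came apart and 6 reversed. Those that came apart were TNFRSF19 H3K27me3 with equal peak numbers (-915 bp), the 50% cover rule (-915 bp), the percentile (-67.6) and the canonical start alone (-747 bp), and PLAG1 H3K27me3 with the percentile (-38.3).

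For H3K4me3, using the percentile in place of called length gave 847 regions higher in every vehicle library, and reversed the differences of LGR4 (-0.663), PLAG1 (-0.931), RNF43 (9.63) and ZNRF3 (4.37 percentile points), while AXIN2 (11.5) and TNFRSF19 (7.92) came to overlap. For H3K27me3 a q-value of at most 1e-05 left 177 regions, of which 1 was longer in every OA library and 14 in every vehicle library, and 0 of the 10 genes, so no sum could be given. Equal peak numbers gave 96 and 424 regions, and a 50% cover rule gave 50 and 673. The percentile reversed AXIN2 H3K27me3 (-6.18) and joining peaks within 5 kb reversed TNFRSF19 H3K27me3 (1221 bp). RSPO3 came to overlap with equal peak numbers (-503 bp), the percentile (-15.1) and joined peaks (-579 bp), and RSPO1 with the cover rule (-1584 bp), regions of any library (-1391 bp) and joined peaks (-1979 bp). The cause of these changes was not tested.

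Leaving out each library in turn, regions longer in every OA library numbered 1708 to 5987 for H3K4me3 and 224 to 1897 for H3K27me3, and in every vehicle library 164 to 2324 and 1993 to 7536. Genes with a region numbered 6 to 6 and 7 to 8, and the summed differences ran from 320 to 2408 bp and from -7161 to -4013 bp. The differences ran from -187 to 79.5 bp for ZNRF3, -680 to 195 bp for RNF43 H3K4me3, -74.2 to 666 bp for PLAG1 H3K4me3, -402 to 50 bp for PLAG1 H3K27me3 and -32.8 to 394 bp for AXIN2 H3K27me3. They reversed for ZNRF3 (79.5, 61.5 and 46.7 bp without vehicle replicates 1 and 2 and OA replicate 2), RNF43 H3K4me3 (195 bp without vehicle replicate 2), PLAG1 (-74.2 bp for H3K4me3 and 50 bp for H3K27me3 without OA replicate 3) and AXIN2 H3K27me3 (-32.8 bp without OA replicate 2), all of which overlapped before.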
